A study of Mus musculus with 12 samples.

Results

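The interaction of busulfan and alginate oligosaccharides (AOS) in mouse spleen was measured as the difference between what AOS changed after busulfan and what AOS changed without it. For each gene it is the log2 fold change of busulfan with AOS over busulfan, minus the log2 fold change of AOS over control. The chosen libraries were all that enter this contrast, 12 of the 12 in the series. RNA from spleen was sequenced in 4 groups of 3 libraries each: busulfan at 40 mg/kg once followed by AOS at 10 mg/kg for 5 weeks, busulfan at 40 mg/kg once, AOS at 10 mg/kg for 5 weeks, and control without treatment. The labels give the strain of all groups as IRC mouse and name no age or sex. The sample code for busulfan has a letter that the design text lacks, and it was taken to mean busulfan with no AOS. Whether each library is its own animal is not labelled, so a p-value here measures spread among libraries, which may be technical. The tissue is labelled as cells in 1 field and as spleen in others, and all 16 B cell, 20 T cell and 20 monocyte and macrophage markers passed the filter on low counts.

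Busulfan is an alkylating drug that crosslinks DNA and depletes blood-forming precursors and germ cells, and it is used to prepare for bone marrow transplantation. AOS are short chains made from alginate, a polysaccharide of brown seaweed. The mouse spleen filters blood, houses B and T lymphocytes and makes blood cells, so its bulk RNA mixes many cell types. Cells that meet misfolded protein raise heat shock chaperones through the transcription factor HSF1, while the endoplasmic reticulum has chaperones of its own. Glucocorticoids raise genes such as Tsc22d3 and Per1, and fasting raises genes such as Pdk4, and both signals also reach the circadian clock, a feedback loop of transcription factors. Levels are CPM, counts relative to the scaled size of the library, listed in replicate order, and means carry the SD of 3 libraries. In bulk tissue, fewer cells of a type and less RNA per cell cannot be told apart.

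The interaction was called in 73 of 15079 genes tested, 0.484% of them, at an edgeR adjusted p under 0.05. Of these, 36 had a positive interaction (0.239% of genes tested), that is, their AOS difference was the more positive after busulfan. The other 37 had a negative interaction (0.245%). An unadjusted p under 0.05 was found for 2502 genes, or 16.6%. Counts given below for a gene list stand beside these shares of all genes tested. The lists were chosen with earlier results of these data known. Their counts and medians may be partly fixed by that choice and are not a separate test. With library totals in place of TMM factors the split was 94 positive and 34 negative, and with limma on log2 FPKM it was 48 and 23.

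All 36 genes with a positive interaction were higher in busulfan with AOS than in busulfan, by a median log2 of 0.57, and lower in AOS than in controls, by a median of −0.19. All 37 with a negative interaction were lower in busulfan with AOS than in busulfan, by a median of −1.01, and 36 of them were higher in AOS than in controls, by a median over the 37 of 0.28. The exception was the transcription factor gene Fosl2, at −0.01. Since the interaction is the difference between these contrasts, the counts describe the called genes and are not a separate test. Negative interactions were the larger, with a median of −1.33 and 25 of 37 reaching 1 in size, against a median of 0.79 and 8 of 36 among the positive ones.

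Most called genes stood apart in the libraries given both agents. These genes were picked by the interaction in the same libraries. The counts below are partly fixed by that choice and are not a separate test. All 3 libraries of busulfan with AOS lay above the other 9 for 27 of 36 genes with a positive interaction, against 3.52% of all genes tested. They lay below the other 9 for 31 of 37 genes with a negative interaction, against 4% of all genes tested. AOS over control passed an adjusted p under 0.05 in edgeR for 0 of 15079 genes, with 894 at an unadjusted p under 0.05, while DESeq2 called 70 and limma on log2 FPKM called 0. Busulfan with AOS over busulfan was called for 34 of the 36 and 36 of the 37, against 3.02% of all genes tested. Busulfan with AOS over AOS was called for 31 of the 36 and 33 of the 37, against 5.81%, and busulfan over control for 5 and 4 of them, against 0.471%. Across all genes the 2 AOS contrasts, which share no library, had a Pearson correlation of 0.07 and a Spearman correlation of −0.08. The genes are not independent replicates.

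**Figure D1:**
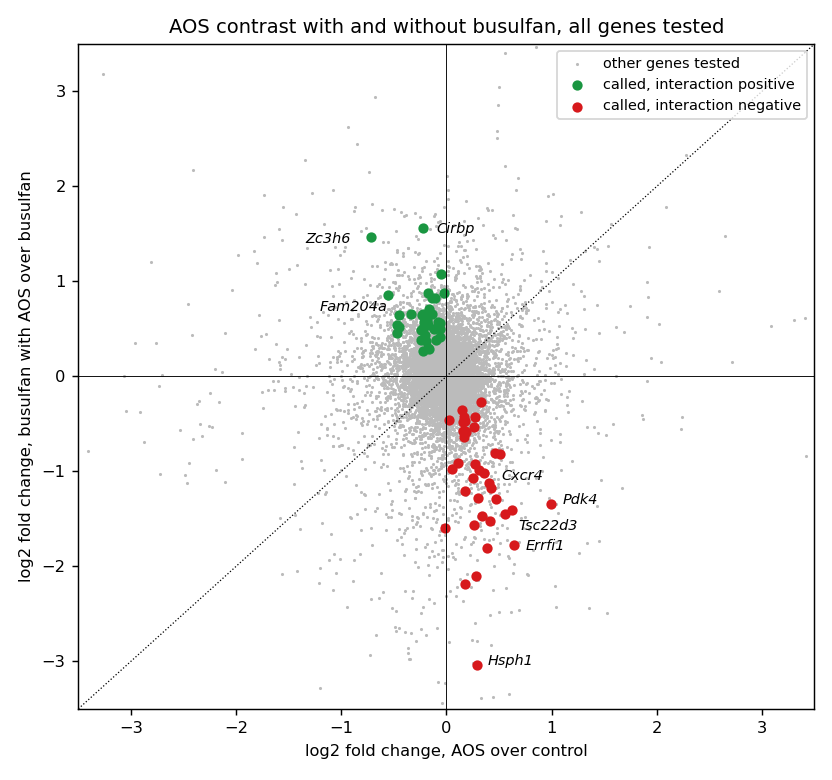
Log2 fold change of busulfan with AOS over busulfan (vertical axis) against that of AOS over control (horizontal axis), with 1 point per gene tested. The 36 called genes with a positive interaction (green) lie above 0 on the vertical axis and left of 0 on the horizontal, the 37 with a negative one (red) lie below it, and 124 genes, 1 of them called, fall outside the axes.

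The number of calls rested on single libraries. It was 15, 8 and 27 without busulfan with AOS 1, 2 and 3, 18, 61 and 110 without busulfan 1, 2 and 3, 26, 21 and 22 without AOS 1, 2 and 3, and 26, 19 and 35 without control 1, 2 and 3. All 73 genes kept the sign of their interaction in each of these fits. Control 1 held the most adipocyte transcripts and AOS 2 the most pancreatic acinar transcripts, and 7 genes were called with both left out. With the acinar level as a covariate 1 gene was called, Pdk4, while the interactions of the 73 genes had a median of 0.95 times their size. Summed acinar levels were higher in every AOS library than in any library of the other groups. This covariate is therefore partly confounded with the contrast, and why the calls fell was not tested. Errfi1, Ddit4, Tsc22d3, Zc3h6, Cxcr4, Gpr171, Dynll1 and Fam204a were called in all 12 fits that left out 1 library.

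**Figure D2:**
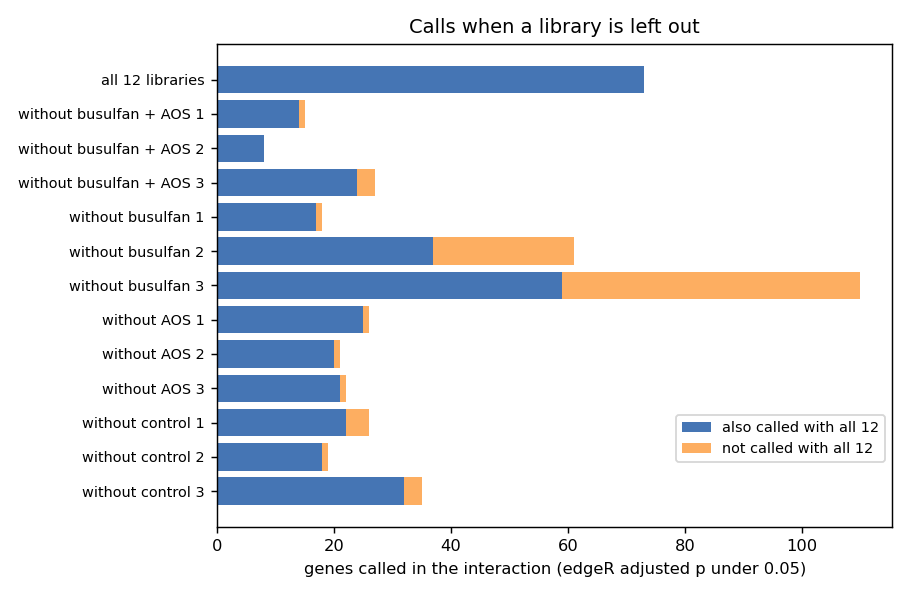
Number of genes called in the interaction (horizontal axis, edgeR adjusted p under 0.05) with all 12 libraries and with each library left out (vertical axis), split into genes also called with all 12 (blue) and not (orange). The count ranges from 8 without busulfan with AOS 2 to 110 without busulfan 3.

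Of 13 genes that respond to glucocorticoids or fasting, 5 were called, all with a negative interaction. They were Tsc22d3, Ddit4, Errfi1, Pdk4 and Per1, and the list had a median of −0.85 against 0.01 over all genes tested. This list was chosen with earlier results of these data known, so these values describe it and are not a separate test. An unadjusted p under 0.05 was reached by 7 members, and Lcn2, 1 of them, is also in the neutrophil list. Tsc22d3 encodes a leucine zipper protein that carries anti-inflammatory effects of glucocorticoids (GRCm38 coordinates, Entrez 14605, chromosome X, 140539528 to 140600522, protein coding). It stood at 62.4, 49.9 and 77.2 CPM with busulfan and AOS, 195, 175 and 147 CPM with busulfan, 160.3, 159 and 163 CPM with AOS and 119, 96.4 and 112 CPM in controls. The libraries of busulfan with AOS were all below the other 9, and those of AOS were all above the controls. Its interaction was −2.01 ± 0.21 (log2 ± SE, edgeR adjusted p = 0.00907), from −1.45 ± 0.15 for AOS after busulfan and 0.56 ± 0.15 for AOS alone.

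Ddit4, an inhibitor of the growth kinase complex mTORC1 (Entrez 74747, chromosome 10, 59949675 to 59951770), stood at 26.8, 21.1 and 32.2 CPM with busulfan and AOS, 74.7, 73.5 and 63.8 CPM with busulfan, 57.5, 47.5 and 57.5 CPM with AOS and 38.6, 34.0 and 32.9 CPM in controls. It was lowest with busulfan and AOS, and the AOS libraries lay between busulfan and control. The interaction of Ddit4 was −2.03 ± 0.20 (edgeR adjusted p = 0.00907). Errfi1, which encodes a protein that dampens signalling by epidermal growth factor (Entrez 74155, chromosome 4, 150853796 to 150868889), stood at 12.3, 16.7 and 20.7 CPM with busulfan and AOS, 60.2, 50.5 and 59.8 CPM with busulfan, 30.2, 23.0 and 33.9 CPM with AOS and 19.6, 21.5 and 14.5 CPM in controls. Busulfan libraries were the highest, and those of busulfan with AOS overlapped the controls, so that Errfi1 had an interaction of −2.42 ± 0.29 (edgeR adjusted p = 0.0114). The interval of Errfi1 overlaps that of 1700045H11Rik in the annotation, and the strand of the counting is not given in the sources used here.

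Pdk4, the kinase that shuts down pyruvate dehydrogenase when fat is burned (Entrez 27273, chromosome 6, 5483351 to 5496278), stood at 5.81, 7.34 and 8.69 CPM with busulfan and AOS, 17.9, 16.9 and 20.8 CPM with busulfan, 13.6, 8.41 and 13.9 CPM with AOS and 6.70, 5.48 and 5.76 CPM in controls. All libraries given 1 agent lay above all controls, and the libraries given both overlapped the controls. Its interaction was −2.34 ± 0.29 (edgeR adjusted p = 0.0116), and it was called in 11 of the 12 fits without 1 library, all but that without busulfan with AOS 2, at −2.54 to −2.21. Other members of the list did not pass. Fkbp5, a chaperone of the glucocorticoid receptor, averaged 37.1 ± 0.789 CPM with busulfan and AOS, 41.0 ± 5.56 CPM with busulfan, 39.8 ± 0.681 CPM with AOS and 34.2 ± 3.48 CPM in controls (interaction −0.36), and Sgk1, a kinase raised by steroids, averaged 42.6 ± 4.12 CPM with busulfan and AOS, 39.4 ± 2.98 CPM with busulfan, 42.7 ± 3.75 CPM with AOS and 41.0 ± 2.39 CPM in controls (interaction 0.05). Summed over the list, levels ran from 343 to 427 CPM with busulfan and AOS, 617 to 974 CPM with busulfan, 506 to 537 CPM with AOS and 384 to 402 CPM in controls. The busulfan libraries did not overlap the others in this sum, the AOS libraries lay next below them, and busulfan with AOS overlapped the controls. Lcn2, the member that is also a neutrophil gene, stood at 30.3, 85.0 and 78.7 CPM with busulfan and AOS, 204, 77.0 and 429.7 CPM with busulfan, 51.2, 52.96 and 38.2 CPM with AOS and 24.4, 46.5 and 29.7 CPM in controls, and busulfan 3, its highest library, also had the highest neutrophil sum. Without Lcn2 the sum of the other 12 members ran from 294 to 348 CPM with busulfan and AOS, 539.6 to 605 CPM with busulfan, 467 to 484 CPM with AOS and 351 to 377 CPM in controls. The busulfan libraries were again the highest and the AOS libraries next, and those of busulfan with AOS then lay below the controls. With control 1 and AOS 2 both left out, 4 members were called, and with the acinar level as a covariate 1 was.

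**Figure D3:**
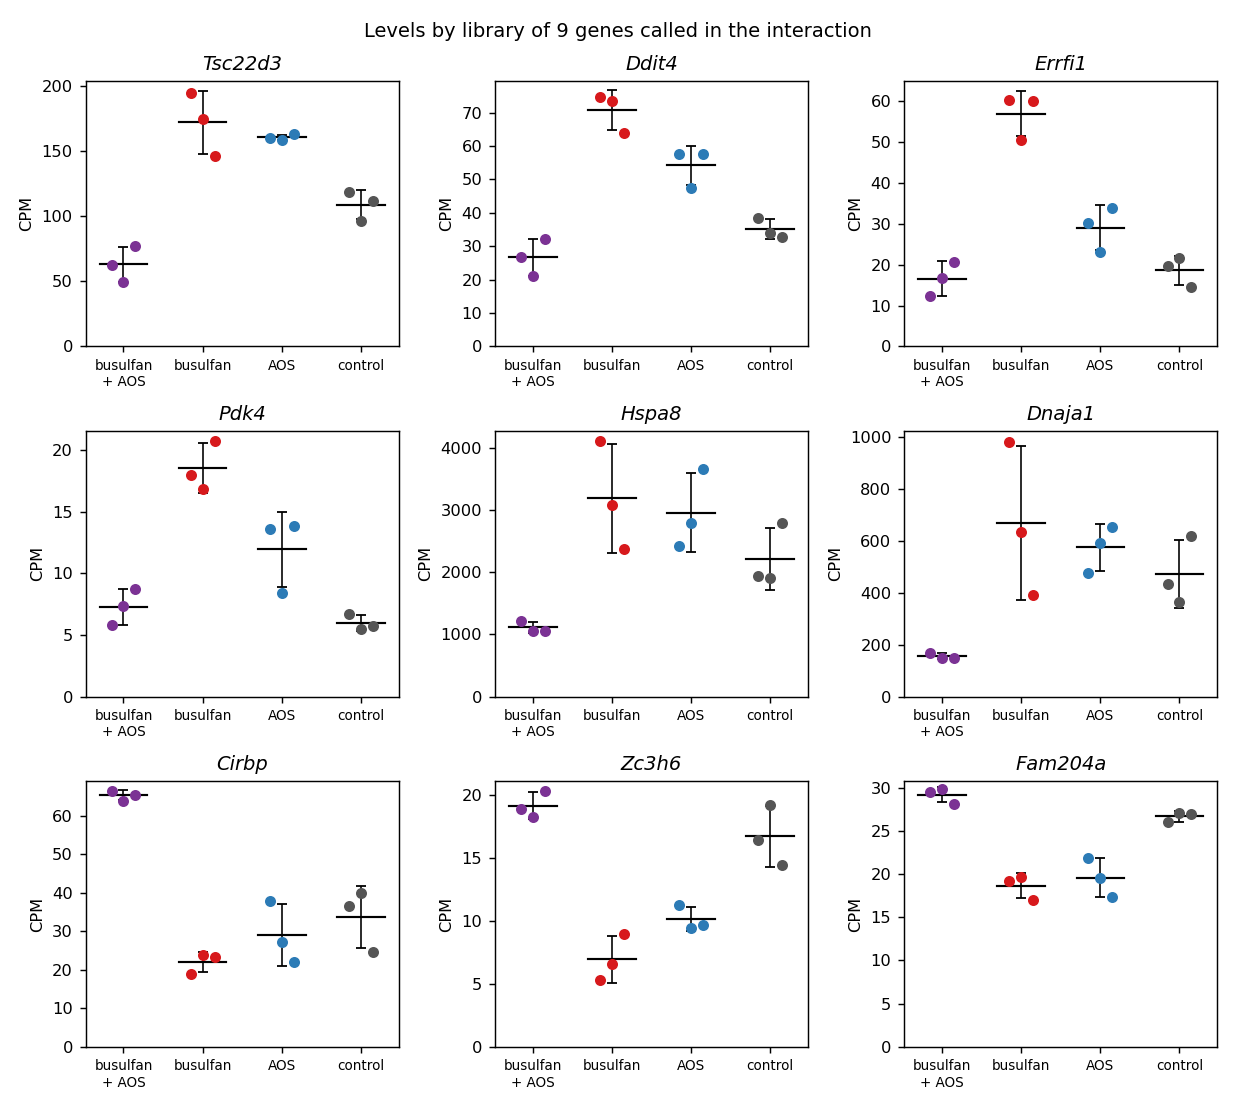
CPM (vertical axis, from 0) of 9 genes called in the interaction in each library (points) of 4 groups (horizontal axis), with the mean (line) and SD of 3 libraries (bar). Tsc22d3, Ddit4, Hspa8 and Dnaja1 are lowest in busulfan with AOS, Cirbp and Fam204a are highest there, and Errfi1 and Pdk4 peak with busulfan.

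Heat shock chaperone genes, which help proteins fold, had negative interactions. Of 20 genes tested, 5 were called, all negative, 18 had an unadjusted p under 0.05, and all 20 had a negative interaction, with a median of −1.43. The shares over all genes tested were 0.484% called and 16.6% at an unadjusted p under 0.05. This list too was chosen with earlier results of these data known, so its counts are not a separate test. The 3 libraries of busulfan with AOS lay below the 3 of busulfan for all 20 genes, against 12.9% of all genes tested. They lay below all other 9 libraries for 16, against 4% of all genes tested. Summed over the list, levels ran from 4377 to 4789 CPM with busulfan and AOS, 8334 to 15509 CPM with busulfan, 7758 to 10949 CPM with AOS and 6572 to 10548 CPM in controls. The libraries of busulfan with AOS did not overlap any other group in this sum, and the other groups overlapped each other.

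Hspa8 encodes the constitutive HSP70 chaperone of the cytosol (Entrez 15481, chromosome 9, 40801276 to 40805202). It stood at 1219.6, 1058 and 1059 CPM with busulfan and AOS, 4117, 3089 and 2376 CPM with busulfan, 2420.4, 2801 and 3667 CPM with AOS and 1946, 1908 and 2797 CPM in controls. Its interaction was −1.94 ± 0.31 (edgeR adjusted p = 0.0331), from −1.52 ± 0.22 for AOS after busulfan and 0.42 ± 0.22 for AOS alone. Dnaja1, an HSP40 partner that delivers clients to HSP70 (Entrez 15502, chromosome 4, 40722468 to 40734965), stood at 169, 149.5 and 149 CPM with busulfan and AOS, 981, 636 and 391 CPM with busulfan, 478, 592 and 654 CPM with AOS and 432, 365 and 619 CPM in controls. For both genes every library of busulfan with AOS lay below the other 9, while the busulfan libraries spread widely and overlapped AOS and control. The interaction of Dnaja1 was −2.39 ± 0.41 (edgeR adjusted p = 0.0405).

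Hsph1, an HSP110 protein that resets HSP70 after each cycle (Entrez 15505, chromosome 5, 149616843 to 149636498), stood at 79.6, 71.1 and 71.0 CPM with busulfan and AOS, 1005, 519 and 300.4 CPM with busulfan, 253, 403 and 456 CPM with AOS and 221, 203 and 484 CPM in controls. Hspb1, a small heat shock protein that holds unfolded clients (Entrez 15507, chromosome 5, 135887919 to 135889563), stood at 3.87, 4.92 and 4.93 CPM with busulfan and AOS, 31.7, 16.5 and 14.6 CPM with busulfan, 10.7, 6.55 and 10.5 CPM with AOS and 8.94, 5.93 and 9.59 CPM in controls. Both were lowest in all 3 libraries of busulfan with AOS and highest in busulfan 1. Their interactions were −3.33 ± 0.62 and −2.37 ± 0.44 (edgeR adjusted p = 0.0492 for each). Chordc1, a partner of HSP90, averaged 70.4 ± 5.41 CPM with busulfan and AOS, 195 ± 74.8 CPM with busulfan, 153 ± 18.6 CPM with AOS and 121 ± 16.9 CPM in controls and had an interaction of −1.81 ± 0.32 (edgeR adjusted p = 0.0473).

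Other chaperones of the list did not pass. Stip1, the adaptor between HSP70 and HSP90, averaged 140.2 ± 9.30 CPM with busulfan and AOS, 395 ± 150.5 CPM with busulfan, 296 ± 53.6 CPM with AOS and 236 ± 61.2 CPM in controls (interaction −1.82, edgeR adjusted p = 0.0568). Fkbp4, an immunophilin bound to HSP90, averaged 105 ± 4.19 CPM with busulfan and AOS, 223 ± 65.5 CPM with busulfan, 177 ± 28.7 CPM with AOS and 147 ± 18.9 CPM in controls (interaction −1.36, edgeR adjusted p = 0.0554). Both were lower in all 3 libraries of busulfan with AOS than in any other. The transcription factor gene Hsf1 averaged 44.8 ± 3.68 CPM with busulfan and AOS, 53.9 ± 4.64 CPM with busulfan, 61.1 ± 2.41 CPM with AOS and 55.4 ± 4.73 CPM in controls, with an interaction of −0.41 ± 0.12 (edgeR adjusted p = 0.146), and of 3 heat shock factor genes 0 were called in edgeR or DESeq2 and 1 had an unadjusted p under 0.05. The stress-inducible HSP70 gene Hspa1a, which has the near-identical copy Hspa1b, had 0 counts in all 3 libraries of busulfan with AOS, which allows up to 0.200 CPM in a library, and stood at 31.0, 8.34 and 1.58 CPM with busulfan, 2.88, 5.63 and 6.55 CPM with AOS and 12.7, 1.66 and 66.8 CPM in controls. The list median was −1.43 also with Hspa1a and Hspa1b raised to the floor of 3 counts per library.

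The calls of chaperones depended on the libraries. The number of list members called was 11 without busulfan 3, 3 without control 3, 1 without busulfan 2 or AOS 1, and 0 without any 1 of the other 8 libraries. It was also 0 with control 1 and AOS 2 both left out, with the acinar level as a covariate and with the replicate number as a block, and 14 by DESeq2.

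Promoters of 3 called chaperone genes and of the clock gene Per1 are shown. They were taken from called genes whose promoter holds a match, so a match was a condition for being shown. Called genes of both directions that also had a match are not shown, such as Fosl2 with the heat shock core and Bhlhe41 with the E-box. Each is the 250 bases before an annotated start, from RefSeq (GRCm38.p6), written 5′ to 3′ on the strand of the gene, with matches in capitals. The capitals mark the heat shock element core, GAANNTTC or TTCNNGAA, in the chaperone promoters, and the E-box CACGTG, which clock factors bind, in Per1.
Hsph1, chr5:149636337-149636586, strand -: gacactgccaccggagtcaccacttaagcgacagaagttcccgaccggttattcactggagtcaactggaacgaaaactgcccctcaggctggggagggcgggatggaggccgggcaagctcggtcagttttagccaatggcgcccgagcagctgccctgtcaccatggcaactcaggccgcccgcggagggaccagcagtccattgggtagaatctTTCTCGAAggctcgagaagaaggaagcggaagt
Dnaja1, chr4:40722218-40722467, strand +: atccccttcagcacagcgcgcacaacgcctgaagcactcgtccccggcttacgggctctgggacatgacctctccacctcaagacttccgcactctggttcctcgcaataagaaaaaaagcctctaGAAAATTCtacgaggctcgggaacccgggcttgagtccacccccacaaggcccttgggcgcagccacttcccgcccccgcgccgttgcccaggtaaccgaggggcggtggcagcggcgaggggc
Hspb1, chr5:135887669-135887918, strand +: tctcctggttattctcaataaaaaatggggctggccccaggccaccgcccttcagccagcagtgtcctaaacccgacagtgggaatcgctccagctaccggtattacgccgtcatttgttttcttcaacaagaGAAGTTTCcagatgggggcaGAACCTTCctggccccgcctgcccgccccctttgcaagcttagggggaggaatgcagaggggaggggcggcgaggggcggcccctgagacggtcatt
Per1, chr11:69098699-69098948, strand +: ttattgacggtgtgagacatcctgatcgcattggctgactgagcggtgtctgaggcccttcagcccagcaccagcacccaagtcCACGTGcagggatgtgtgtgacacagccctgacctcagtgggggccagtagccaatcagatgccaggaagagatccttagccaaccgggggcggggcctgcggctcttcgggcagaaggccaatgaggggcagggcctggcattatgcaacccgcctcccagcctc

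Hsph1 has its match at −33 and Dnaja1 at −124, counted back from the start to the first base of the match, Hspb1 has 2 matches, and Per1 has its E-box at −166. The gene interval of Per1, given below, begins upstream of the window shown, so its E-box lies inside that interval. Hsph1 has another annotated start, not shown, from which the same match lies at −54 and an E-box at −19. The gene interval given above for Hsph1 extends upstream of both starts, so the match lies inside that interval. Both strands were searched, and the 2 forms of the heat shock core can overlap. The heat shock core occurred in 12.8% of 32851 promoters in the table. Counted by gene, with at least 1 listed promoter matching, it occurred in 9 of the 17 heat shock genes found there, against 12.4% of 11411 genes tested. Among called genes the heat shock core occurred in 6 of 28 with a negative interaction (21.4%) and 3 of 30 with a positive one (10%). No match was found for Chordc1, and Hspa8 had no promoter in the set searched. The E-box occurred in 6.02% of promoters and, counted by gene, in 5 of the 15 clock genes found, against 9.46% of genes tested. Among called genes the E-box occurred in 4 of 28 with a negative interaction (14.3%) and 2 of 30 with a positive one (6.67%). A glucocorticoid response element, GNACA and TGTNC with NNN between, occurred in 0.387% of promoters and, counted by gene, in 0.307% of genes tested, in 2 of 12 genes of the glucocorticoid list and in 0 of 28 called genes with a negative interaction. A match is a description of these letters and not a measured binding site.

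Chaperones of the endoplasmic reticulum showed smaller differences in the same direction. All 16 genes tested had a negative interaction, with a median of −0.53, 11 had an unadjusted p under 0.05, and 1 was called, against 8 in DESeq2. The number called was 0 with control 1 and AOS 2 both left out, with the acinar level as a covariate or with the replicate number as a block. The libraries of busulfan with AOS lay below those of busulfan for 13 of the 16, but below all other 9 for 0. Over all genes tested these shares were 12.9% and 4%. Herpud1, a membrane protein of the pathway that clears misfolded proteins (Entrez 64209, chromosome 8, 94386429 to 94395371), stood at 96.6, 78.5 and 79.0 CPM with busulfan and AOS, 138, 116 and 115 CPM with busulfan, 107, 124 and 107 CPM with AOS and 98.9, 93.7 and 89.1 CPM in controls. It was highest with busulfan, and busulfan with AOS overlapped the controls. Its interaction was −0.80 ± 0.15 (edgeR adjusted p = 0.0492), called in 1 of the 12 fits without 1 library, that without busulfan 3. Dnajb9, an HSP40 protein of the reticulum, averaged 38.7 ± 2.40 CPM with busulfan and AOS, 53.9 ± 7.84 CPM with busulfan, 52.1 ± 2.75 CPM with AOS and 43.1 ± 5.01 CPM in controls (interaction −0.75, edgeR adjusted p = 0.0691).

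The 2 cold-inducible RNA-binding protein genes had positive interactions, and 1 was called, against 2 in DESeq2. The number called was 0 with control 1 and AOS 2 both left out, with the acinar level as a covariate or with the replicate number as a block. Cirbp, whose product binds and stabilises messenger RNA in mild cold (Entrez 12696, chromosome 10, 80165990 to 80172786), stood at 66.5, 64.0 and 65.5 CPM with busulfan and AOS, 19.0, 23.7 and 23.4 CPM with busulfan, 37.9, 27.1 and 21.98 CPM with AOS and 36.6, 40.0 and 24.6 CPM in controls. All 3 libraries of busulfan with AOS lay above the other 9, and AOS and control overlapped. Its interaction was 1.79 ± 0.29 (edgeR adjusted p = 0.0331), from 1.57 ± 0.21 for AOS after busulfan and −0.22 ± 0.20 for AOS alone. Rbm3, the related gene, also had its 3 highest libraries in busulfan with AOS, averaged 651 ± 37.6 CPM with busulfan and AOS, 434 ± 10.2 CPM with busulfan, 469 ± 107 CPM with AOS and 518 ± 37.1 CPM in controls, and did not pass (interaction 0.73 ± 0.19, edgeR adjusted p = 0.110). Cirbp was called in 4 of the 12 fits that left out 1 library, those without busulfan 2, busulfan 3, AOS 1 or control 3, and its log2 ranged from 1.62 to 2.02 over the 12.

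Clock genes split in both directions. Of 18 tested, Bhlhe41 was called positive and Per1 negative, 12 had an unadjusted p under 0.05, and the median was 0.13. Per1, a repressor arm gene that also answers to glucocorticoids (Entrez 18626, chromosome 11, 69095108 to 69109965), stood at 27.9, 25.3 and 32.4 CPM with busulfan and AOS, 61.7, 47.9 and 63.4 CPM with busulfan, 37.7, 38.0 and 44.1 CPM with AOS and 28.5, 35.4 and 29.9 CPM in controls. It was highest with busulfan, and busulfan with AOS overlapped the controls. Its interaction was −1.37 ± 0.19 (edgeR adjusted p = 0.0156). Bhlhe41, a repressor of clock activators (Entrez 79362, chromosome 6, 145858243 to 145865420), stood at 30.0, 28.2 and 27.7 CPM with busulfan and AOS, 18.2, 21.6 and 20.4 CPM with busulfan, 18.1, 19.1 and 16.4 CPM with AOS and 26.1, 22.7 and 24.2 CPM in controls. All libraries given both agents were above the other 9, and AOS was below control, with an interaction of 0.97 ± 0.13 (edgeR adjusted p = 0.0149).

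Several clock genes with large interactions did not pass. Dbp, an output transcription factor of the clock, averaged 11.4 ± 2.22 CPM with busulfan and AOS, 4.47 ± 1.57 CPM with busulfan, 6.49 ± 1.33 CPM with AOS and 8.36 ± 1.10 CPM in controls (interaction 1.72, edgeR adjusted p = 0.0639). Nr1d1, the repressor REV-ERBα, averaged 17.3 ± 3.24 CPM with busulfan and AOS, 6.398 ± 2.32 CPM with busulfan, 5.17 ± 0.543 CPM with AOS and 4.34 ± 0.381 CPM in controls (interaction 1.18, edgeR adjusted p = 0.135), and Nr1d2, its relative, averaged 53.4 ± 7.27 CPM with busulfan and AOS, 32.4 ± 3.37 CPM with busulfan, 40.2 ± 3.57 CPM with AOS and 42.4 ± 3.55 CPM in controls (interaction 0.80, edgeR adjusted p = 0.0657). All 3 genes stood higher in every library of busulfan with AOS than in any of busulfan. Arntl, an activator of the clock that REV-ERB proteins repress, averaged 18.3 ± 0.368 CPM with busulfan and AOS, 21.98 ± 1.15 CPM with busulfan, 26.1 ± 2.23 CPM with AOS and 21.5 ± 2.35 CPM in controls (interaction −0.55, edgeR adjusted p = 0.0931) and was lowest in the 3 libraries of busulfan with AOS. Bhlhe41 was called in 10 of the 12 and Per1 in 9 of the 12 fits without 1 library. DESeq2 called 5 clock genes, 3 of them positive, and 0 were called with control 1 and AOS 2 both left out or with the acinar level as a covariate.

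Among immediate early genes, the first transcribed after a stimulus, 1 of 20 was called, 5 (25%) had an unadjusted p under 0.05 and the median was −0.30. For all genes tested the shares were 0.484% called and 16.6% at an unadjusted p under 0.05. The called gene was Fosl2, an AP-1 transcription factor (Entrez 14284, chromosome 5, 32136472 to 32157840), at 10.2, 11.7 and 14.9 CPM with busulfan and AOS, 40.0, 26.2 and 45.7 CPM with busulfan, 20.5, 20.9 and 22.6 CPM with AOS and 20.2, 21.8 and 22.6 CPM in controls. Its libraries of busulfan with AOS were the 3 lowest, AOS and control overlapped, and busulfan was the highest group. Its interaction was −1.59 ± 0.27 (edgeR adjusted p = 0.0361), called in 3 of the 12 fits without 1 library, those without busulfan with AOS 3, busulfan 2 or busulfan 3, and not with control 1 and AOS 2 both left out or with the acinar level as a covariate. Fos, the founding member, averaged 4.38 ± 0.0527 CPM with busulfan and AOS, 5.501 ± 2.00 CPM with busulfan, 4.50 ± 1.09 CPM with AOS and 4.81 ± 0.612 CPM in controls (interaction −0.24).

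A chemokine receptor and another G protein-coupled receptor were among the 12 named for the largest negative interactions. Cxcr4, the receptor for the chemokine CXCL12 that holds leukocytes in marrow and lymphoid tissue (Entrez 12767, chromosome 1, 128588199 to 128592299), stood at 83.0, 89.0 and 78.6 CPM with busulfan and AOS, 217, 180.4 and 167 CPM with busulfan, 178, 209 and 212 CPM with AOS and 147, 126 and 174 CPM in controls. All libraries given both agents were below the other 9, and AOS lay above control. Its interaction was −1.59 ± 0.18 (edgeR adjusted p = 0.0114). Gpr171, the other receptor (Entrez 229323, chromosome 3, 59096448 to 59101821, inside the interval of Med12l), stood at 27.6, 21.2 and 27.9 CPM with busulfan and AOS, 70.4, 57.1 and 59.0 CPM with busulfan, 50.1, 65.1 and 69.9 CPM with AOS and 48.1, 53.9 and 48.8 CPM in controls. Again busulfan with AOS was below the other 9, with AOS and control overlapping, and the interaction was −1.58 ± 0.20 (edgeR adjusted p = 0.0116).

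The gene with the largest positive interaction among those named was Zc3h6, which encodes a CCCH zinc finger protein (Entrez 78751, chromosome 2, 128967402 to 129018563). It stood at 18.9, 18.3 and 20.3 CPM with busulfan and AOS, 5.30, 6.54 and 8.99 CPM with busulfan, 11.3, 9.47 and 9.70 CPM with AOS and 16.5, 19.2 and 14.5 CPM in controls. Busulfan and AOS each lay below all controls, and the libraries given both overlapped the controls. The interaction was 2.18 ± 0.25 (edgeR adjusted p = 0.0114), from 1.46 ± 0.18 for AOS after busulfan and −0.72 ± 0.17 for AOS alone. Fam204a (Entrez 76539, chromosome 19, 60197148 to 60226705) had a like order at 29.5, 29.9 and 28.2 CPM with busulfan and AOS, 19.2, 19.7 and 17.0 CPM with busulfan, 21.8, 19.5 and 17.4 CPM with AOS and 25.98, 27.1 and 27.0 CPM in controls. Its libraries of busulfan with AOS were above the other 9, and its interaction was 1.09 ± 0.13 (edgeR adjusted p = 0.0114).

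Other named genes with a positive interaction were Haghl (1.41 ± 0.20, its interval overlapping Ciao3), the stomatin relative Stoml1 (1.12 ± 0.18), the zinc finger gene Zfp945 (1.05 ± 0.15), Gas2 (1.01 ± 0.19, overlapping Fancf), Tceanc (0.96 ± 0.17), the ubiquitin ligase gene March7 (0.93 ± 0.16) and Gtpbp10 (0.92 ± 0.17). Their edgeR adjusted p-values ran from 0.0193 for Haghl to 0.0492 for Gas2, and Gas2 and Gtpbp10 were called in 0 of the 12 fits without 1 library.

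Haghl, a relative of a glyoxalase, averaged 11.8 ± 1.00 CPM with busulfan and AOS, 6.52 ± 0.660 CPM with busulfan, 6.72 ± 1.06 CPM with AOS and 9.85 ± 0.945 CPM in controls, and Stoml1 averaged 39.2 ± 3.80 CPM with busulfan and AOS, 18.6 ± 2.49 CPM with busulfan, 26.2 ± 1.28 CPM with AOS and 27.1 ± 3.83 CPM in controls. Zfp945 averaged 35.1 ± 1.85 CPM with busulfan and AOS, 19.2 ± 1.84 CPM with busulfan, 23.3 ± 2.37 CPM with AOS and 26.4 ± 2.74 CPM in controls, and March7 averaged 123 ± 8.51 CPM with busulfan and AOS, 69.3 ± 8.84 CPM with busulfan, 81.1 ± 5.95 CPM with AOS and 87.3 ± 9.90 CPM in controls. For all 4 genes the 3 libraries of busulfan with AOS lay above the other 9. Gtpbp10 averaged 16.03 ± 1.74 CPM with busulfan and AOS, 11.7 ± 0.841 CPM with busulfan, 9.69 ± 0.821 CPM with AOS and 13.4 ± 1.21 CPM in controls, and Gas2, a protein of the cytoskeleton, averaged 8.21 ± 1.25 CPM with busulfan and AOS, 5.63 ± 0.286 CPM with busulfan, 5.11 ± 0.282 CPM with AOS and 7.09 ± 0.0583 CPM in controls. Both lay lower in AOS than in controls without overlap, and the libraries given both agents overlapped other groups. Haghl was called in 7 of the 12, Zfp945 in 6 of the 12 and Stoml1 and March7 in 3 of the 12 fits without 1 library.

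**Figure D4:**
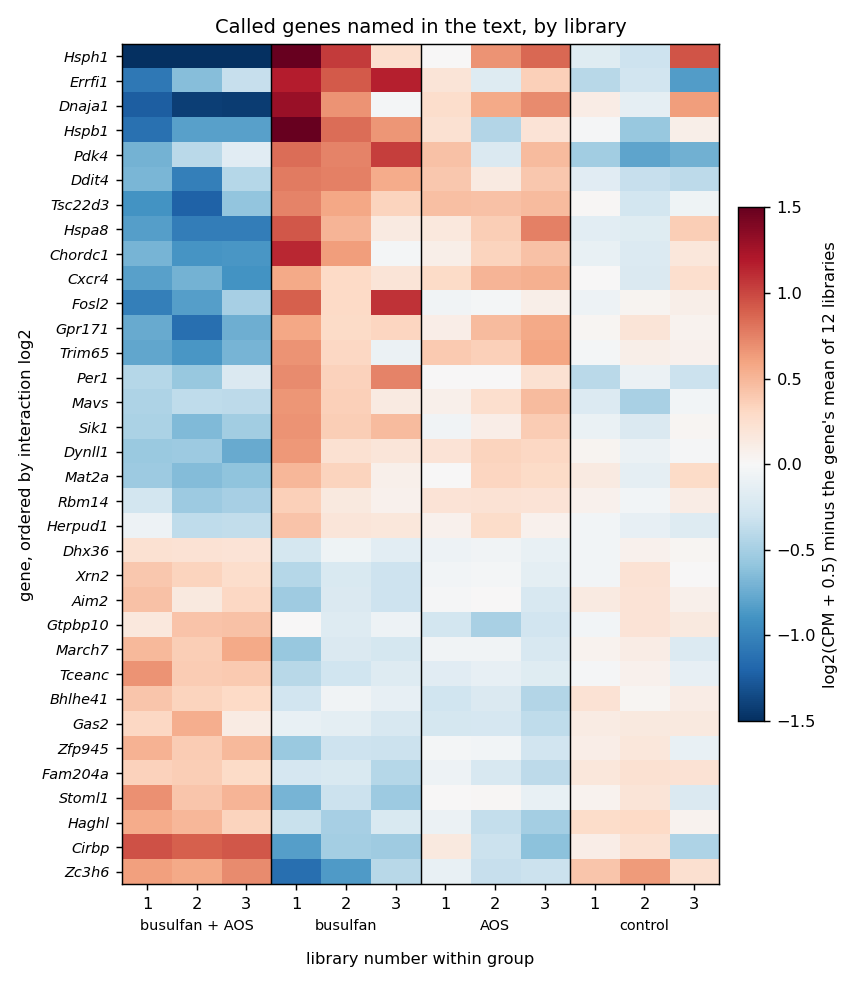
Log2(CPM + 0.5) minus the gene's mean over 12 libraries (colour, limited at 1.5) for 34 of the 73 called genes, those named in the text (rows, from the most negative to the most positive interaction) in each library (columns, by group). Most genes of the upper rows are lowest, and most of the lower rows highest, in the 3 libraries of busulfan with AOS.

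Neutrophil genes had the largest negative median among the blood cell lists, with no member called. All 18 had a negative interaction, with a median of −1.94, and 16 had an unadjusted p under 0.05, while 0 passed over all genes in edgeR and 2 in DESeq2. Retnlg, a resistin-like protein of granulocytes, stood at 11.7, 24.01 and 27.6 CPM with busulfan and AOS, 75.0, 26.2 and 124 CPM with busulfan, 13.7, 13.1 and 11.7 CPM with AOS and 5.30, 8.73 and 7.74 CPM in controls. The 3 busulfan libraries spread widely, and busulfan 2 overlapped busulfan with AOS. Its interaction was −2.65 ± 0.68 (edgeR adjusted p = 0.0998). Ly6g, a surface marker of neutrophils, had an interaction of −2.79 ± 0.77 (edgeR adjusted p = 0.113). Summed over the list, levels ran from 979 to 2644 CPM with busulfan and AOS, 2128 to 11674 CPM with busulfan, 1076 to 1531 CPM with AOS and 731 to 1399 CPM in controls. The part of these cells in the calls above was not tested.

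Eosinophil, basophil and mast cell genes were similar, with a median of −1.27 over 14 genes, 0 called in edgeR, 1 in DESeq2 and 8 at an unadjusted p under 0.05. Prg2, which encodes a toxic protein stored by eosinophils, stood at 4.94, 11.7 and 8.45 CPM with busulfan and AOS, 22.2, 9.43 and 36.6 CPM with busulfan, 2.497, 4.63 and 2.77 CPM with AOS and 2.04, 1.27 and 1.41 CPM in controls. It was highest in busulfan 1 and 3, while busulfan 2 lay within the range of busulfan with AOS, and it had an interaction of −2.50 ± 0.69 (edgeR adjusted p = 0.114). Gata2, a transcription factor of mast cells and progenitors, averaged 6.29 ± 0.380 CPM with busulfan and AOS, 9.26 ± 1.64 CPM with busulfan, 8.98 ± 0.676 CPM with AOS and 8.64 ± 0.254 CPM in controls (interaction −0.61, edgeR adjusted p = 0.157) and was lowest in all 3 libraries of busulfan with AOS.

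Other immune lists had 0 members called in edgeR. The median interaction was 0.12 over 16 B cell genes, −0.05 over 16 germinal centre and plasma cell genes and −0.01 over 20 T cell genes. It was −0.27 over 14 natural killer and cytotoxic genes, −0.28 over 20 monocyte and macrophage genes and 0.18 over 13 dendritic cell genes. Members with an unadjusted p under 0.05 numbered 2, 2, 0, 1, 1 and 1 in that order. These shares are at or below the 16.6% of all genes tested, and DESeq2 called 1 B cell gene, 1 dendritic cell gene and 0 in the other 4 lists.

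Single members came nearer to the threshold. Cd209a, a lectin of dendritic cells, stood at 9.28, 8.11 and 8.26 CPM with busulfan and AOS, 25.2, 15.1 and 14.4 CPM with busulfan, 17.6, 16.1 and 16.6 CPM with AOS and 15.4, 13.5 and 17.6 CPM in controls. It was lowest in all 3 libraries of busulfan with AOS, with an interaction of −1.21 ± 0.27 (edgeR adjusted p = 0.0785). Tnfrsf13c, through which B cells receive the survival factor BAFF, averaged 95.9 ± 15.9 CPM with busulfan and AOS, 131 ± 25.3 CPM with busulfan, 178 ± 10.3 CPM with AOS and 149 ± 17.2 CPM in controls (interaction −0.71 ± 0.21, edgeR adjusted p = 0.141), and Prdm1, the plasma cell regulator, averaged 16.6 ± 0.673 CPM with busulfan and AOS, 10.6 ± 0.622 CPM with busulfan, 10.1 ± 0.816 CPM with AOS and 9.13 ± 0.828 CPM in controls (interaction 0.50 ± 0.15, edgeR adjusted p = 0.132). The class II inhibitor gene H2-Oa averaged 48.1 ± 2.22 CPM with busulfan and AOS, 30.8 ± 6.53 CPM with busulfan, 49.8 ± 6.36 CPM with AOS and 54.4 ± 2.04 CPM in controls (interaction 0.77 ± 0.19, edgeR adjusted p = 0.0929).

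Antigen presentation and innate signalling lists also had 0 called. Medians were 0.16 over 10 MHC class II genes, −0.11 over 13 MHC class I genes, 0.07 over 20 interferon-stimulated genes and −0.21 over 20 cytokine and Toll-like receptor genes. Members at an unadjusted p under 0.05 numbered 1, 2, 0 and 2 in that order, and DESeq2 called 1 MHC class II gene and 0 in the other 3 lists. Interferon-stimulated genes stood higher in all 3 libraries of busulfan with AOS than in any of busulfan for 13 of 20, against 14.3% of all genes tested. Their sum ran from 1643 to 2065 CPM with busulfan and AOS, 1109 to 1432 CPM with busulfan, 830.4 to 2767 CPM with AOS and 956 to 1231 CPM in controls, so that the AOS libraries alone spanned the range of all groups.

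DNA damage lists had 0 called in edgeR and 1 each in DESeq2. The 22 p53 targets had a median of −0.15, with 6 at an unadjusted p under 0.05, and the 20 crosslink repair genes had a median of 0.20, with 3. Aen, a nuclease raised by p53, averaged 30.4 ± 2.34 CPM with busulfan and AOS, 37.5 ± 1.98 CPM with busulfan, 29.6 ± 2.35 CPM with AOS and 27.1 ± 1.40 CPM in controls (interaction −0.43 ± 0.12, edgeR adjusted p = 0.114). Fan1, a nuclease that unhooks crosslinks, averaged 8.95 ± 0.725 CPM with busulfan and AOS, 5.57 ± 0.0122 CPM with busulfan, 5.44 ± 0.769 CPM with AOS and 6.36 ± 1.36 CPM in controls (interaction 0.91 ± 0.24, edgeR adjusted p = 0.111) and was highest in the 3 libraries of busulfan with AOS. The 20 antioxidant genes had a median of −0.01, with 1 at an unadjusted p under 0.05 and 0 called in edgeR or DESeq2.

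Blood formation and proliferation lists had 0 called in edgeR or DESeq2. Medians were 0.05 over 22 erythroid genes and −0.08 over 18 stem cell and megakaryocyte genes, with 0 and 1 at an unadjusted p under 0.05. Mitosis genes had a median of 0.30 over 20, with 90% positive and 2 at an unadjusted p under 0.05, and replication genes 0.12 over 20, with 85% positive and 0. Over all genes tested 51.5% were positive. Cdc20, an activator of the anaphase-promoting complex, averaged 90.2 ± 13.1 CPM with busulfan and AOS, 72.6 ± 11.5 CPM with busulfan, 52.9 ± 5.15 CPM with AOS and 61.8 ± 8.74 CPM in controls (interaction 0.54 ± 0.21, edgeR adjusted p = 0.224).

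**Figure D5:**
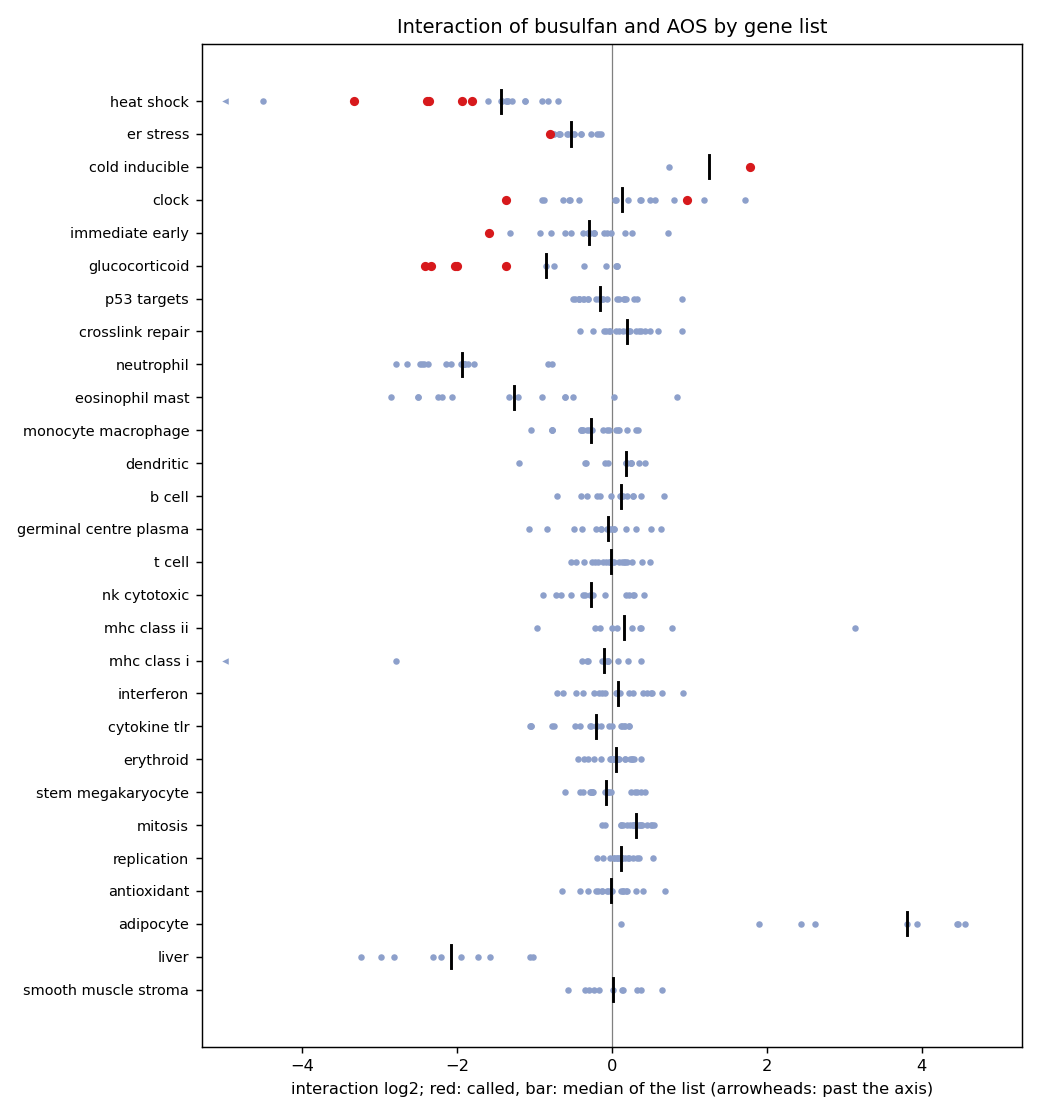
Interaction log2 (horizontal axis) of every tested member of 28 gene lists (vertical axis), with called members in red and the list median as a bar. Heat shock genes lie wholly below 0 with 5 called and neutrophil genes lie wholly below 0 with 0 called, and the 2 members past the axis limit of 5 are drawn as arrowheads.

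Transcripts of other tissues differed widely between libraries. Summed over 20 pancreatic acinar genes, levels ran from 162 to 2414 CPM with busulfan and AOS, 29.7 to 996 CPM with busulfan, 2847 to 45765 CPM with AOS and 18.6 to 186 CPM in controls. AOS 2 stood at 45765 CPM, AOS 1 at 2847 and AOS 3 at 5294 CPM, all above every library of the other groups. The acinar list had a median interaction of −6.48, with all 20 at an unadjusted p under 0.05 and 0 called in edgeR, against 4 in DESeq2. Adipocyte genes summed to 26.8 to 82.6 CPM with busulfan and AOS, 33.8 to 109 CPM with busulfan, 36.7 to 45.4 CPM with AOS and 57.4 to 544 CPM in controls, with control 1 at 544 CPM, and 3 of 9 tested had an unadjusted p under 0.05, with 0 called in edgeR or DESeq2. All 9 had a positive interaction, with a median of 3.81, or 3.00 with low group means raised to the floor. Liver genes summed to 12.6 to 23.0 CPM with busulfan and AOS, 38.4 to 169 CPM with busulfan, 59.1 to 254 CPM with AOS and 55.3 to 454 CPM in controls. Of 10 liver genes, 8 were lower in the 3 libraries of busulfan with AOS than in the other 9, against 4% of all genes tested. In this list 2 had an unadjusted p under 0.05, with 0 called in edgeR and 1 in DESeq2, and all 10 had a negative interaction, with a median of −2.08. Smooth muscle and stromal genes had a median of 0.01, with 0 at an unadjusted p under 0.05 and 0 called in edgeR or DESeq2. The part of these transcripts in the called genes was not tested beyond the fits described above, and the acinar covariate is partly confounded with the contrast. Of the pancreatic islet genes 2 passed the filter and 0 were called in edgeR or DESeq2.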

How the data were processed

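RNA-seq of 12 mouse spleen libraries, 3 per group, was analysed from 1 table that the authors deposited, with a value per gene and library. The authors deposited expected counts, named read counts in the headers, and 75.7% of them are whole. The authors also deposited an expression value taken here as FPKM, since the count divided by it tracked the library total to 0.432% for 1227 genes of 2000 counts or more. The submitters' processing notes name the build mm10. How reads were aligned, counted and assigned to strands is not given in the sources used here, so overlapping genes and near-identical copies may share reads. Of 19376 rows, 18362 carry an Entrez number, of which 18233 were found in a RefSeq table of GRCm38.p6 that gave the coordinates, and 1014 carry a BGIG identifier and held 2.72% to 3.13% of a library's counts. A further 8 columns of group averages were not used.

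After rounding, the expected counts were fitted in edgeR 4.0.16 under R 4.3.3 (filterByExpr with a minimum count of 10, TMM factors of 0.965 to 1.04, glmQLFit with 1 mean per group on all 12 libraries, glmQLFTest two-sided, Benjamini-Hochberg over 15079 genes). Genes with an adjusted p under 0.05 are termed called. The model had 8 residual degrees of freedom, 2.97 prior degrees of freedom and a biological coefficient of variation of 18.9%. SE is the absolute log2 value over the root of its F statistic. Library totals ran from 15051297 to 16241883 counts, and 3 counts, the limit a count of 0 allows, equal 0.185 to 0.200 CPM, for counting error only. Over 12 pairs of libraries within groups, chi-square divided by its degrees of freedom was 15.9 to 72.7 for genes of 20 or more counts, so none was a copy. The code was tested on simulated data. Alternatives were DESeq2 1.42.0, limma 3.58.1 with trend on log2(FPKM + 1), other scaling factors and filters, a replicate block, covariates and libraries left out.

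Genes and 31 lists (481 genes) were chosen with earlier results of these data known. The text names, among genes with an Entrez number, no predicted symbol and at least 5 CPM in the highest group, the 12 called genes of each direction with the largest interaction, and the 2 genes of smallest p in each list, and other list members by role. Among them, 1 gene is not reported here. Figures were drawn with matplotlib 3.10.9 in Python 3.11.15.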

Additional observations from a re-analysis of the deposited data

Results flagged for a closer look

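The AOS difference of 25 named genes differed between libraries with busulfan and libraries without it, by edgeR's test of the interaction itself, which is what brings them here. The interaction log2 was positive for Zc3h6 (2.18), Cirbp (1.79), Haghl (1.41), Stoml1 (1.12), Fam204a (1.09), Zfp945 (1.05), Gas2 (1.01), Bhlhe41 (0.97), Tceanc (0.96), March7 (0.93) and Gtpbp10 (0.92). It was negative for Hsph1 (−3.33), Errfi1 (−2.42), Dnaja1 (−2.39), Hspb1 (−2.37), Pdk4 (−2.34), Ddit4 (−2.03), Tsc22d3 (−2.01), Hspa8 (−1.94), Chordc1 (−1.81), Cxcr4 (−1.59), Fosl2 (−1.59), Gpr171 (−1.58), Herpud1 (−0.80) and Per1 (−1.37). No explanation of these differences was tested.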

How the results depend on the processing

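The interaction was called for 73 genes. The number was 70 with RLE factors, 101 with upper quartile factors and 71 with limma on log2 FPKM. It was 128 with library totals alone, 112 with a stricter filter, 43 with no filter and 621 by DESeq2, and of the 73 genes 64, 70, 43 and 73 were among these. With 1 library left out it ranged from 8 to 110. It was 7 with control 1 and AOS 2 both left out, and 1 with the acinar level as a covariate. The cause of these shifts was not tested. All 73 genes kept their sign in every alternative that gave them a value, 70 of them under the stricter filter. For the 25 called named genes, 182 of the values under other settings stayed on the same side of the threshold and 68 did not, and with 1 library left out 152 did and 148 did not. Of 18 same-numbered pairs of libraries 5 correlated above 0.1 (range −0.07 to 0.27). In addition, 0 libraries correlated best with their own number in every other group. With 3 libraries per group such values cannot decide whether the replicate numbers pair the libraries. With the replicate block 33 genes were called, 29 of them among the 73. The members called under the block numbered 0 of 20 heat shock, 0 of 16 endoplasmic reticulum, 0 of 2 cold-inducible, 2 of 18 clock, 1 of 20 immediate early and 5 of 13 glucocorticoid genes, against 5, 1, 1, 2, 1 and 5 without it. Leaving out a library leaves 2 in its group, which limits what such fits can call.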

Other observations

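Several called genes outside the naming rule, chosen here after their values were seen, belong to groups not described above. Mavs, the mitochondrial adaptor of cytosolic RNA sensing, averaged 47.7 ± 1.43 CPM with busulfan and AOS, 84.2 ± 15.8 CPM with busulfan, 77.0 ± 10.6 CPM with AOS and 54.1 ± 8.29 CPM in controls (interaction −1.33 ± 0.21, edgeR adjusted p = 0.0327). Trim65, a ubiquitin ligase of the same sensing pathway, averaged 25.7 ± 1.65 CPM with busulfan and AOS, 56.0 ± 14.6 CPM with busulfan, 60.9 ± 5.38 CPM with AOS and 45.9 ± 2.05 CPM in controls (interaction −1.53 ± 0.22, edgeR adjusted p = 0.0171). Both had their lowest mean with busulfan and AOS. Aim2, a sensor of cytosolic DNA, went the other way at 102 ± 9.95 CPM with busulfan and AOS, 64.7 ± 7.11 CPM with busulfan, 78.0 ± 7.14 CPM with AOS and 91.0 ± 3.86 CPM in controls (interaction 0.88 ± 0.14, edgeR adjusted p = 0.0331), and its interval overlaps that of Cadm3. They were called in 4 of the 12, 7 of the 12 and 2 of the 12 fits without 1 library, in that order.

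Further called genes were chosen in the same way, and no list or enrichment stands behind them. Xrn2, a nuclear exonuclease, averaged 191 ± 9.001 CPM with busulfan and AOS, 121 ± 8.64 CPM with busulfan, 144 ± 6.51 CPM with AOS and 158 ± 15.1 CPM in controls (interaction 0.79 ± 0.12, edgeR adjusted p = 0.0198), and Dhx36, a helicase that unwinds G-quadruplexes, averaged 86.6 ± 0.644 CPM with busulfan and AOS, 66.5 ± 4.75 CPM with busulfan, 70.5 ± 1.52 CPM with AOS and 75.5 ± 2.91 CPM in controls (interaction 0.48 ± 0.09, edgeR adjusted p = 0.0435). Rbm14, a coactivator and RNA-binding protein, averaged 35.8 ± 3.60 CPM with busulfan and AOS, 55.6 ± 6.22 CPM with busulfan, 56.2 ± 0.267 CPM with AOS and 50.01 ± 2.69 CPM in controls (interaction −0.80 ± 0.13, edgeR adjusted p = 0.0331), and Mat2a, which makes S-adenosylmethionine, averaged 279 ± 10.8 CPM with busulfan and AOS, 525 ± 75.2 CPM with busulfan, 489 ± 56.7 CPM with AOS and 454 ± 65.6 CPM in controls (interaction −1.02 ± 0.19, edgeR adjusted p = 0.0477). Xrn2 and Dhx36 were highest, and Rbm14 and Mat2a lowest, with busulfan and AOS. Xrn2 was called in 7 of the 12 fits without 1 library, Rbm14 in 3 of the 12 and Dhx36 and Mat2a in 1 of the 12. The intervals of Rbm14 and Mat2a overlap those of Gm21992 and Ggcx, in that order. Sik1, a salt-inducible kinase, averaged 36.3 ± 2.45 CPM with busulfan and AOS, 76.1 ± 8.16 CPM with busulfan, 59.3 ± 9.34 CPM with AOS and 49.9 ± 4.15 CPM in controls (interaction −1.32 ± 0.17, edgeR adjusted p = 0.0116), and Dynll1, a light chain of dynein, averaged 111 ± 8.81 CPM with busulfan and AOS, 221 ± 40.8 CPM with busulfan, 208 ± 9.75 CPM with AOS and 168 ± 7.11 CPM in controls (interaction −1.30 ± 0.16, edgeR adjusted p = 0.0116). The largest interaction of all called rows was that of the unannotated identifier BGIG10090_40987, at 204, 235 and 182 CPM with busulfan and AOS, 1.53, 1.22 and 4.30 CPM with busulfan, 0, 3.58 and 1.76 CPM with AOS and 1.66, 5.93 and 2.69 CPM in controls.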
